A study of Mus musculus with 32 samples.

Results

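Interferon-response genes are the genes that cells switch on after they sense viral nucleic acid or bind interferon. The 43 genes described here were chosen by name, as columns present in the tables of all 32 libraries, out of 24421 genes. They encode cytosolic RNA and nucleic acid sensors, transcription factors, enzymes of the Isg15 modifier, 2-5A synthetases, IFIT and guanylate-binding proteins, other antiviral effectors, parts of the class I antigen-processing machinery and 2 secreted proteins. The choice used no values of these libraries, but it was made with earlier results of these data known.

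In the textbook pathway, type I interferon binds a receptor that activates the kinases Jak1 and Tyk2. Downstream of them, Stat2 and Irf9 act in a complex that binds the interferon-stimulated response element (ISRE) in front of target genes. Several targets, among them the sensors Ifih1 (MDA5) and Ddx58 (RIG-I) and the factors Irf7, Stat2 and Irf9, feed back into the pathway, while Usp18 dampens it. Fibroblasts are a classic cell type for this response.

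The libraries are single-cell 3′ transcript libraries (ddSEQ, SureCell kit) from mouse embryonic fibroblasts (MEFs) on their way to pluripotency, with 16 groups of 2 libraries, replicates A and B. The MEF group had no treatment and no time point. The FBS groups (days 3, 6, 9 and 12) were reprogramming cultures in serum-containing ESC medium without small molecules. A2S cultures (days 2, 4 and 6) had ascorbic acid at 50 ug/mL, the DOT1L inhibitor SGC0946 at 5 uM and 2i, which is the GSK3 inhibitor CHIR-99021 with the MEK inhibitor PD-0325901. A2 cultures lacked SGC0946, S2 cultures lacked ascorbic acid and AS cultures lacked 2i, each at days 4 and 6. V6.5 mouse embryonic stem cells were cultured without small molecules (ESC) or with A2S (ESC A2S, labelled day 2). A protocol shared by all samples describes reprogramming with doxycycline at 2 ug/mL and the small molecules, on irradiated MEFs as feeders. It does not name the groups, so whether the FBS groups had the same dose and feeders, and whether the MEF group was on feeders, is not stated. The labels give no genotype or strain of the fibroblasts. Doxycycline, feeders, plating and time therefore cannot be told apart in any comparison with MEF. The labels also do not say that replicates A and B came from separate cultures, and the p-values then describe no more than how these libraries vary, which may be technical.

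The authors deposited a list of barcodes called irradiated MEFs. Of 8334 barcodes, 684 were on it (listed cells) and 7650 were not (kept cells), and the 2 kinds are shown apart. Libraries held 138 to 431 kept cells and 1727490 to 8848775 kept unique molecular identifiers (UMIs), and listed cells were 0% to 35.8% of a library. Barcode sequences found in 2 libraries numbered 34. The replicates of AS day 4 stood furthest apart of all replicate pairs, with a chi-square per degree of freedom of 8.62 where the lowest pair had 1.64, and results that rest on them are given with and without them. The listed cells also held macrophage transcripts, described with their own values below. Kept cells of MEF carried the fibroblast collagen gene Col1a1 at 1492 CPM.

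Levels are CPM, a gene's UMIs per 1000000 UMIs of the same cells, summed per library. In such sums, fewer cells with a transcript and less of it per cell cannot be told apart, so counts per cell follow further below. Tests used edgeR's quasi-likelihood model with Benjamini-Hochberg adjustment over 13229 genes of the kept cells. Fold changes are log2 values from that model with their standard errors, and a gene is called past an adjusted p of 0.05. Of the 43 members, 42 entered the test. Mx1, a GTPase that blocks viral replication, had too few UMIs.

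Sequences in front of the start sites show what many of these genes share without any use of their levels. The ISRE core searched was GAAANNGAAA on either strand, from 250 bases before to 50 bases after each RefSeq start site of build GRCm38.p6. It was found at 16 of the 34 members with a window (47.1%), against 3.99% of 27025 genes. Windows with 2 or more matches were found at 7 members (20.6%), against 0.266% of all genes. A match is a run of letters and does not show that a factor bound there. Windows without a match included those of Irf7, Oasl2 and Ifi44. Upstream stretches of 6 members are shown because their ISRE arrangements differ. They run 5′ to 3′ on the gene's own strand, and capitals mark the ISRE matches. Overlapping matches merge into 1 run, as in Isg15 with 3 matches and Bst2 with 2.
Isg15, chr4:156200835-156200924, minus strand: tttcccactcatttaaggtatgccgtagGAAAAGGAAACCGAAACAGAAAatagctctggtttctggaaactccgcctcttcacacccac
Ifit1, chr19:34640764-34640853, plus strand: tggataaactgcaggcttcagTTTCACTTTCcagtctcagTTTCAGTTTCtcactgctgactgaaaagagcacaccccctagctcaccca
Ifit3, chr19:34583367-34583456, plus strand: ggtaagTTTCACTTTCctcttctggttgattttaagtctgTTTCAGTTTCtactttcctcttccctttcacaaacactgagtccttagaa
Bst2, chr8:71537547-71537636, minus strand: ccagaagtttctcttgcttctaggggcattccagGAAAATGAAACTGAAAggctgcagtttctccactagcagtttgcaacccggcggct
Rsad2, chr12:26456523-26456612, minus strand: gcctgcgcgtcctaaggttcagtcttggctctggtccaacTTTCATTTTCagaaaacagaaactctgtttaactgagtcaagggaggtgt
Cxcl10, chr5:92349053-92349139, minus strand: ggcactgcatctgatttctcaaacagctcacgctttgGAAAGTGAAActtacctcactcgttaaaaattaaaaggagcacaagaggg

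Some members were also neighbours on a chromosome. Of the 42 members with a GENCODE position, 20 lay in 8 groups of neighbours within 500 kb of each other. The same share was not taken for all genes. Ifit1, Ifit2 and Ifit3 sit together on chromosome 19 (34550694 to 34650009, GRCm38). Oas1a, Oas2 and Oas3 form a group on chromosome 5 (120730333 to 120907521). Psmb8, Psmb9 and Tap1 share a stretch of chromosome 17 (34181987 to 34201454), and Parp9, Parp14 and Dtx3l one of chromosome 16 (35832874 to 35972605).

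Across the kept cells, the 43 genes were high in 5 libraries: both of FBS day 3, both of A2S day 2, and replicate B of AS day 4. The interferon-induced transmembrane protein gene Ifitm3 alone made up a large part of their UMIs, so sums are given without it. The other 42 members summed to 466 and 429 CPM in MEF A and B. In FBS day 3 they summed to 2798 and 2700 CPM, and in A2S day 2 to 2679 and 2990 CPM. AS day 4 B, at 3072 CPM, was at the level of those early libraries, and AS day 4 A, at 548 CPM, was not. The 4 early libraries also had the largest shares of listed cells of all 32 libraries, 35.8% and 26.9% in FBS day 3 and 27.2% and 22.8% in A2S day 2. MEF had 3.25% and 2.93%, and AS day 4 A and B had 6.08% and 9.23%. ESC A2S A and B had 14.2% and 10.9%, with kept sums of 524 and 529 CPM. S2 day 4 A and B had 9.86% and 13.8%, with kept sums of 382 and 355 CPM. The part of these shares in the members' levels was not tested. Sums in the other kept libraries ran from 355 CPM in S2 day 4 B to 897 CPM in AS day 6 B, with ESC at 785 and 790 CPM.

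**Figure D1:**
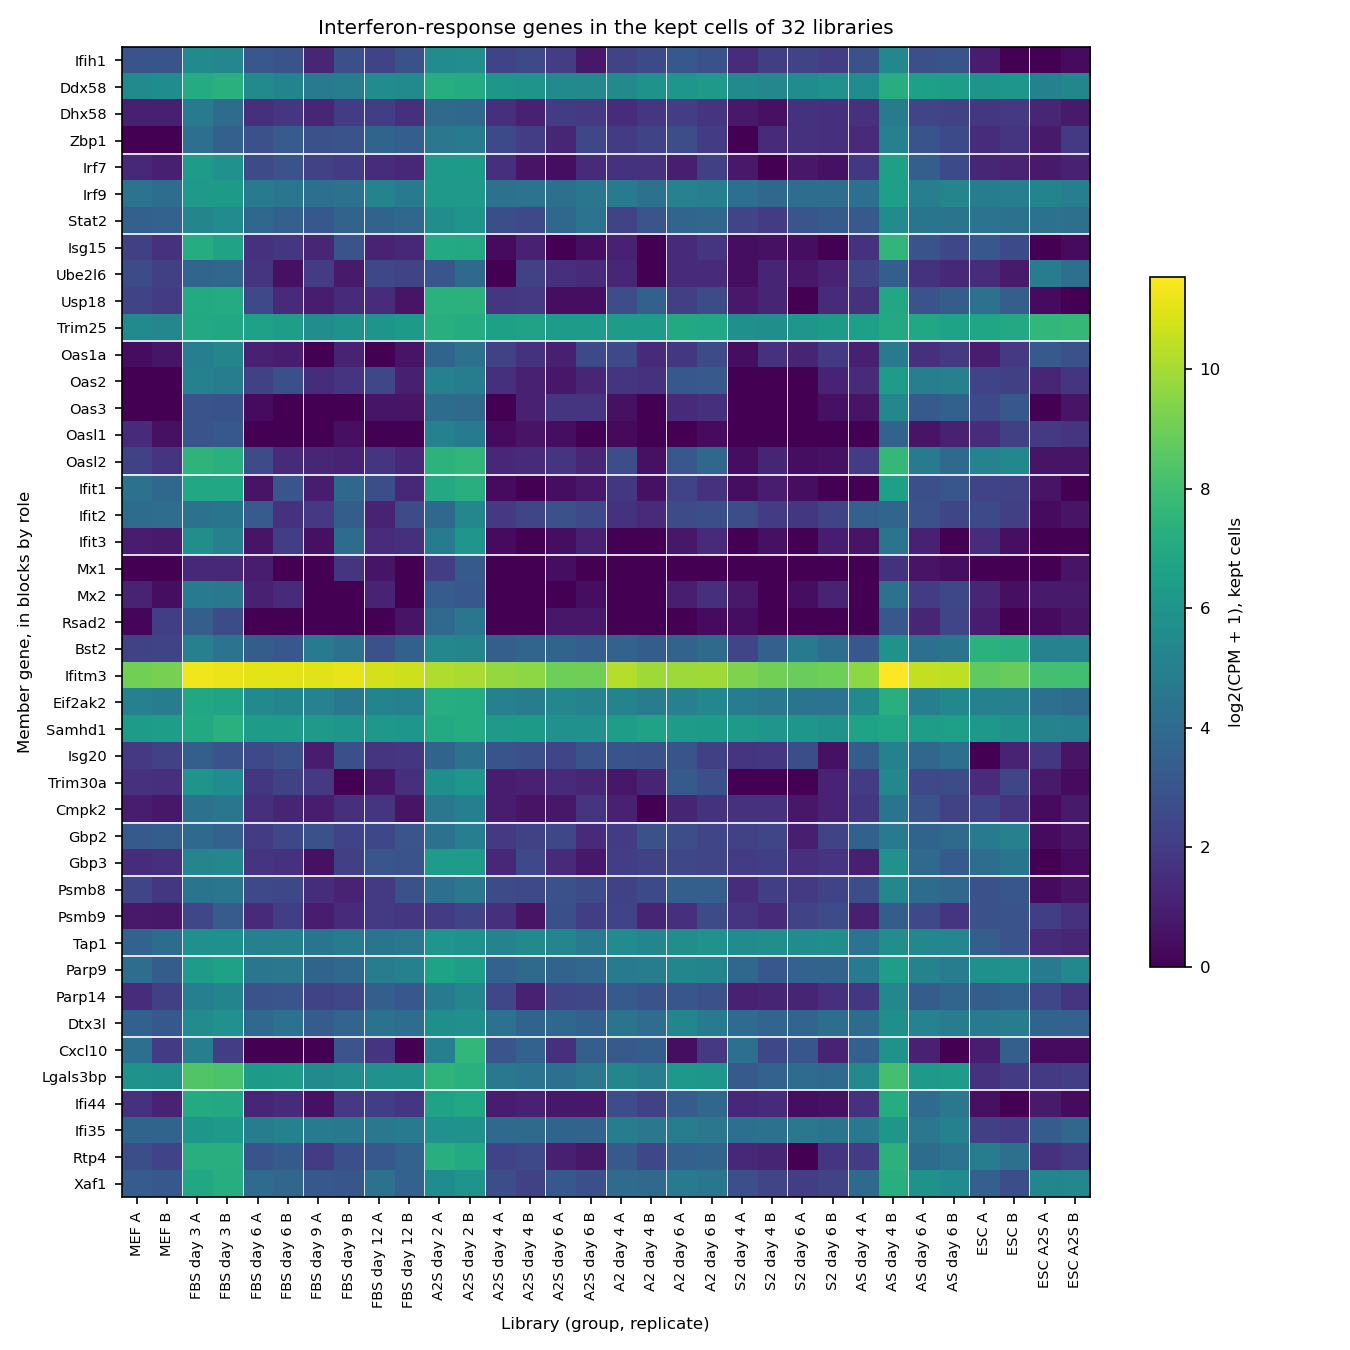
Heatmap of log2(CPM + 1) in kept cells for the 43 members (rows, in blocks by role) in the 32 libraries (columns). Bright columns at FBS day 3, A2S day 2 and AS day 4 B run through nearly all blocks, while Ifitm3 is high in every library.

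The first comparison asked how the early reprogramming cultures differed from untreated fibroblasts. In FBS day 3, 38 of 42 tested members were higher than in MEF and 0 were lower, where 19.8% of all 13229 genes were called higher. The members' median change was 2.66, against 0 for all genes. In A2S day 2, 41 members were higher and 0 lower, where 25.6% of all genes were called higher, and the median change was 2.96. Both comparisons share the MEF libraries. A member near 0 in MEF, such as Oas2, Oas3 or Zbp1 with 0 UMIs there, could enter the test through the libraries where it was high. That favours rises in these counts and in those by family below. The members called higher in FBS day 3 were all called higher in A2S day 2 as well, which added Cxcl10, Gbp2 and Isg20. Setting the 3 genes that were absent from MEF at their lower bounds left both medians as they were. Other gene lists moved in the same comparisons: of 10 fibroblast markers, 8 were lower in FBS day 3 and 9 in A2S day 2, where 20.9% and 24.2% of all genes were called lower. Of 10 G2/M cell-cycle genes, 10 and 9 were higher. Their part in the members' changes was not tested.

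Sensors rose in both cultures, 4 of 4 members each. Ifih1, which senses long double-stranded RNA, was at 6.73 and 6.89 CPM in MEF, 42.99 and 39.99 CPM in FBS day 3, and 46.7 and 49.0 CPM in A2S day 2. The libraries of either early group did not overlap those of MEF. The changes were 2.43 ± 0.37 (SE; adjusted p = 3.34e-06, edgeR) and 2.60 ± 0.37 (adjusted p = 4.90e-07). Ddx58, the sensor of short 5′-triphosphate RNA, started higher, at 46.4 CPM in MEF, and rose less, by 1.50 ± 0.21 and 1.38 ± 0.21. Zbp1, a sensor of Z-form nucleic acid, had 0 UMIs in MEF and 98 and 195 UMIs in the early groups. Against 3 UMIs over the MEF group it was at least 67.2-fold higher in FBS day 3 and at least 111-fold higher in A2S day 2.

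All 3 transcription factors rose. Irf7, which drives interferon genes, was at 1.43 and 1.02 CPM in MEF, 79.8 and 56.5 CPM in FBS day 3, and 71.4 and 77.7 CPM in A2S day 2. Every early library was far above both MEF libraries, and the changes were 5.62 ± 0.65 (adjusted p = 2.59e-08, edgeR) and 5.71 ± 0.65 (adjusted p = 8.79e-09). Irf9 rose by 1.86 ± 0.29 and 1.80 ± 0.29, and Stat2 by 1.76 ± 0.30 and 2.14 ± 0.29.

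The Isg15 group rose as a whole, 4 of 4 members in each culture. Isg15, the ubiquitin-like modifier whose upstream stretch is shown above, was at 3.58 and 2.15 CPM in MEF. It reached 141 and 98.6 CPM in FBS day 3 and 131 and 122 CPM in A2S day 2, with no overlap with MEF. The changes were 5.24 ± 0.68 (adjusted p = 1.78e-07, edgeR) and 5.28 ± 0.67 (adjusted p = 8.25e-08). Usp18, which removes Isg15 and restrains receptor signalling, went from 3.60 CPM in MEF to 134 and 168 CPM, by 5.05 ± 0.56 and 5.34 ± 0.56.

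The 2-5A synthetase family, of which some members make the second messenger that activates RNase L, rose in 5 of 5 members each. Oas2 and Oas3 had 0 UMIs in MEF. Oas2 was at least 145-fold higher in FBS day 3 and at least 139-fold in A2S day 2, and Oas3 at least 30.8-fold and 69.8-fold. Oasl2, a synthetase-like protein, was at 3.72 and 2.49 CPM in MEF, 180 and 161 CPM in FBS day 3, and 175 and 191 CPM in A2S day 2. Its early libraries did not overlap those of MEF, and its changes were 5.62 ± 0.65 and 5.69 ± 0.64.

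Among the IFIT proteins, which bind viral RNA, Ifit1 and Ifit3 rose and Ifit2 was not called. Ifit3 was at 0.859 and 0.791 CPM in MEF, 51.1 and 31.1 CPM in FBS day 3, and 25.5 and 63.1 CPM in A2S day 2. Ifit1 was at 19.0 and 13.4 CPM in MEF, 120 and 115 CPM in FBS day 3, and 125 and 151 CPM in A2S day 2. The early libraries of both genes lay above the MEF libraries. The MEF level of Ifit1 came mostly from 1 cell per library, which held 124 of 133 UMIs in MEF A and 110 of 119 in MEF B. Without that cell, MEF A had 1.29 CPM. The changes of Ifit1, 2.69 ± 0.51 and 2.89 ± 0.51, were called by edgeR, but not by DESeq2 (adjusted p = 0.173 and 0.123). Ifit2 was at 16.1 CPM in MEF, 20.3 CPM in FBS day 3 and 26.4 CPM in A2S day 2.

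The other direct antiviral effectors changed by very different sizes. Ifitm3, which blocks viral entry, was abundant before reprogramming, at 546 and 570 CPM in MEF. It reached 2488 and 2342 CPM in FBS day 3 (1.94 ± 0.27, adjusted p = 7.30e-07, edgeR) but only 1144 and 1072 CPM in A2S day 2 (0.78 ± 0.27, adjusted p = 0.0146). That second call was lost when any of its 4 libraries was left out. Samhd1, which hydrolyses dNTPs, rose least among the called members of FBS day 3, by 0.63 ± 0.10. Bst2 (tetherin), which holds budding virions on the cell, rose by 2.51 ± 0.43 and 3.03 ± 0.41. Rsad2 (viperin) was at 0.143 and 3.39 CPM in MEF and rose by 1.84 ± 0.71 in FBS day 3, a call lost without MEF A or without FBS day 3 A (adjusted p = 0.327 and 0.356). The MEF B value came from 1 cell with 29 of 30 UMIs. Mx1, untested, had 0 UMIs in MEF, 10 in FBS day 3 and 49 in A2S day 2, at least 6.85-fold and 27.8-fold higher.

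Antigen-processing members rose in 3 of 3 cases each. Psmb8, an immunoproteasome subunit, rose by 2.48 ± 0.42 and 2.36 ± 0.41, and Tap1, the peptide transporter, by 1.81 ± 0.22 and 1.98 ± 0.21. Of the guanylate-binding proteins, Gbp3 rose in both cultures. Gbp2 was called only in A2S day 2 (1.20 ± 0.31), and not there without A2S day 2 B. Its level was 12.8 CPM in FBS day 3, against 9.10 CPM in MEF.

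The 2 secreted members differed. Lgals3bp, a scavenger-receptor-domain glycoprotein, was at 57.5 and 54.4 CPM in MEF, 341 and 308 CPM in FBS day 3, and 181 and 159 CPM in A2S day 2, and it rose in both. Cxcl10, a chemokine that draws T cells, was at 17.3 and 3.16 CPM in MEF, 29.2 and 3.36 CPM in FBS day 3, and 30.1 and 200 CPM in A2S day 2. Its replicates were far apart in all 3 groups, and FBS day 3 overlapped MEF. The call in A2S day 2, 3.34 ± 0.71 (adjusted p = 0.000239, edgeR), was lost without A2S day 2 B (adjusted p = 0.220). A single kept cell of that library held 382 of its 863 Cxcl10 UMIs, and only 29 of its 190 kept cells had any. In MEF A, 117 of 121 Cxcl10 UMIs were in 1 cell.

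Among the remaining members, Ifi44 had the largest fitted change in FBS day 3 of those with UMIs in MEF, from 2.15 and 1.13 CPM to 133 and 125 CPM in FBS day 3 (6.14 ± 0.66). It was at 100 and 115 CPM in A2S day 2 (5.85 ± 0.66). Xaf1, a pro-apoptotic zinc-finger protein, rose by 3.72 ± 0.42 and 2.46 ± 0.44.

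Other genes of the pathway came from lists made for these data. Of 74 further interferon-induced genes, 54 entered the test. Among these 54, 42 rose in FBS day 3 and 41 in A2S day 2, and 0 fell in either, with medians of 2.01 and 1.86. A gene near 0 in MEF could enter the test through the libraries where it was high, which favours rises in these counts. Of receptors and proximal signalling genes, 2 of 15 were higher and 5 lower in FBS day 3, where 19.8% and 20.9% of all genes were called, and 3 were higher and 9 lower in A2S day 2 (25.6% and 24.2%). The receptor genes Ifnar1 and Ifnar2 fell by 0.55 ± 0.14 and 0.77 ± 0.15 on the log2 scale in A2S day 2, and were not called in FBS day 3. Socs1, a feedback inhibitor, rose by 1.10 ± 0.22 and 1.58 ± 0.21. The class I gene H2-K1 rose by 1.64 ± 0.17 and 2.55 ± 0.17. Of NF-kB and inflammatory targets, 2 of 19 were higher and 4 lower in FBS day 3, shares near or below those of all genes, and 4 were higher and 9 lower in A2S day 2.

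Transcripts of the interferons themselves were nearly absent. In all 7650 kept cells, Ifnb1 had 1 UMI, in AS day 4 B, Ifnk had 1 and Ifnl2 had 1, and the 8 other ligand genes examined had 0. Listed cells of A2S day 2 held 24 Ifnb1 UMIs, in 3 cells. One such cell had 17, out of 6970 UMIs. Members other than Ifitm3 made up 7.76%, 8.97% and 9.34% of the UMIs of those 3 cells, which also carried the macrophage transcripts Lyz2 (2, 3 and 41 UMIs) and Tyrobp (12, 26 and 15 UMIs) and 0 UMIs of Col1a1. These cells were noticed after values were seen.

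A direct comparison of the early cultures, which also differ by 1 day, showed like levels for most members. Of 42, 3 were higher in A2S day 2 and 4 lower, where 13.5% of all genes were called higher and 12.6% lower. Ifitm3 was lower in A2S day 2 by 1.16 ± 0.27 (adjusted p = 0.00135, edgeR), and it was the only one of the 7 whose call did not depend on a single library. Lgals3bp (-0.97 ± 0.30), Xaf1 (-1.26 ± 0.37) and Mx2 (-1.57 ± 0.54) were lower. Cxcl10 (2.76 ± 0.73), Oasl1 (1.95 ± 0.50) and Gbp2 (0.88 ± 0.33) were higher. Leaving out A2S day 2 B, FBS day 3 A or FBS day 3 B brought the 7 calls down to 3, and DESeq2 made 1. With neither AS day 4 library in the fit, 12 were called, 7 higher and 5 lower.

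**Figure D2:**
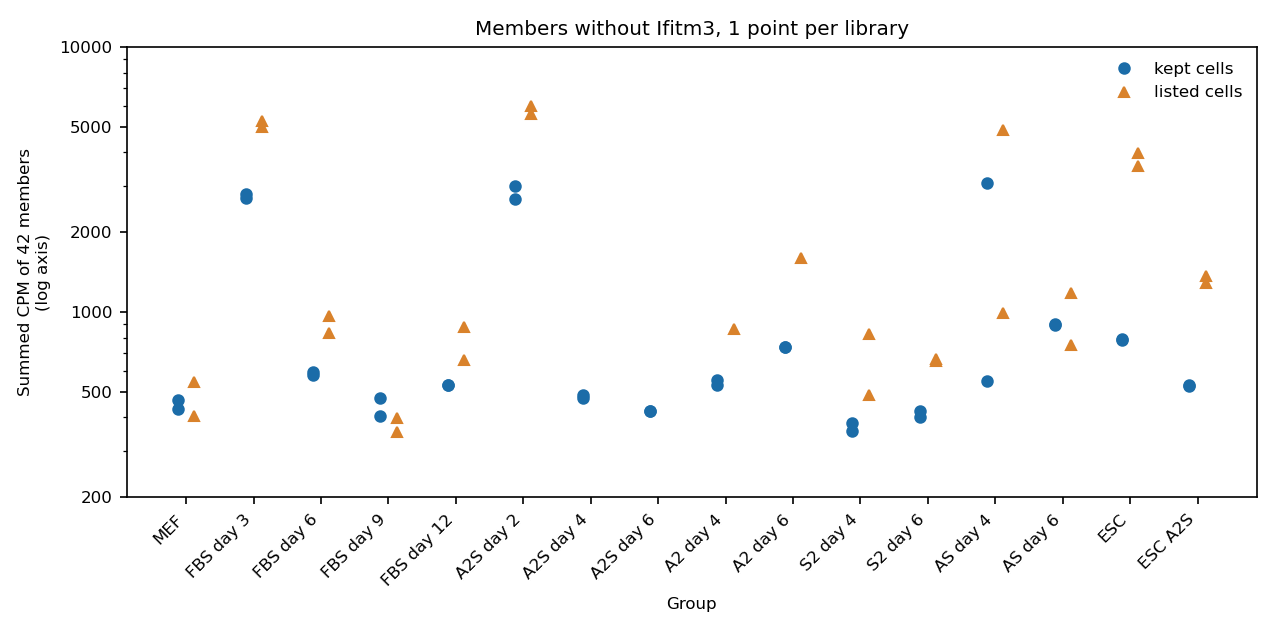
Summed CPM of the 42 members other than Ifitm3 (log axis) by group, 1 point per library, for kept cells (circles) and listed cells (triangles, libraries with at least 5 of them). Kept cells reach 2679 CPM or more only in FBS day 3, A2S day 2 and AS day 4 B.

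The next comparisons followed the early cultures over time. Between FBS day 3 and day 6, 38 of 42 members fell and 0 rose, where 19.0% of all genes were called lower, with a median of -2.59. From A2S day 2 to day 4, 39 fell and 0 rose, where 15.7% of all genes were called lower, with a median of -3.23. By FBS day 12, 37 members were lower than at day 3 (22.2% of all genes), and by A2S day 6, 41 were lower than at day 2 (26.1%). Of the 38 members that had risen by FBS day 3, 35 fell by FBS day 6, and of the 41 that had risen by A2S day 2, 38 fell by day 4. Each pair of comparisons shares its early libraries. Members that entered the test through those libraries favour falls in these counts.

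Isg15 returned to 2.17 and 2.54 CPM in FBS day 6 (-5.66 ± 0.84, adjusted p = 2.93e-06, edgeR). In A2S day 4 it was at 0.280 and 1.09 CPM, from 3 UMIs, a ratio of 0.00428 (95% counting interval 0.000880 to 0.0125). All 4 libraries were far below the early libraries, and none was above MEF A. Ifit1 had 1 UMI in A2S day 4, where A2S day 2 had 1120. Oasl2 fell by 5.41 ± 0.74 and 6.95 ± 0.89 on the log2 scale, Usp18 by 5.19 ± 0.67 and 6.04 ± 0.72, and Ifi44 by 6.38 ± 0.81 and 6.85 ± 0.91. Rsad2 had 0 UMIs in FBS day 6 and in A2S day 4, at least 15.5-fold and 34.6-fold lower. Lgals3bp fell to 79.2 CPM and 22.02 CPM.

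Ifitm3 did not follow the others at the next time point. It was at 2106 and 2154 CPM in FBS day 6 (-0.17 ± 0.26, adjusted p = 0.669, edgeR), and in FBS day 12 it was still higher than in MEF, by 1.39 ± 0.27 (adjusted p = 5.95e-05). In A2S day 4 it was at 850 and 769 CPM (-0.50 ± 0.27, adjusted p = 0.167), and this fall was called with neither AS day 4 library in the fit (adjusted p = 0.000120). By A2S day 6 Ifitm3 was at 514 and 522 CPM and was called lower than at day 2. MEF had 546 and 570 CPM. Psmb9 and Isg20 were not called in the falls to FBS day 6 and to A2S day 4 either, nor was Zbp1 in that to FBS day 6.

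The late cultures were then compared with MEF itself. At FBS day 12, 6 members were higher and 3 lower, where 27.6% and 26.9% of all genes were called, and the median was 0.23. The higher ones were Zbp1 (at least 49.6-fold), Oas2 (at least 12.4-fold), Ifitm3, Parp9 (1.06 ± 0.35), Ifi35 (0.82 ± 0.30) and Trim25 (0.53 ± 0.15). Samhd1 (-0.50 ± 0.12), Ifit1 (-2.38 ± 1.03) and Ifit2 (-2.51 ± 0.56) were lower. The Ifit1 call rests on the 1 high cell in each MEF library: without the highest cell of each library, Ifit1 was at 1.29 and 1.02 CPM in MEF and at 2.34 and 1.05 CPM in FBS day 12, no longer lower. Only 5 calls were made without FBS day 12 B, and 18 with neither AS day 4 library in the fit. At A2S day 6, 6 members were higher (35.0% of all genes) and 7 lower (31.1%), with a median of -0.47. Trim25, a ubiquitin ligase that acts on RIG-I, rose by 0.65 ± 0.13, and Tap1 by 0.92 ± 0.24. Lgals3bp fell by 1.77 ± 0.41 on the log2 scale and Samhd1 by 0.84 ± 0.12. The share of members called was below that of all genes in each of these 4 counts. Some members had few UMIs on both sides, which limits what could be called. Isg15, for one, had 25 and 19 UMIs in MEF and 2 and 3 in FBS day 12.

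Cultures that lacked 1 component were compared with A2S at day 4. Without SGC0946 (A2), 3 members were higher, where 7.81% of all genes were called higher: Parp9 (1.17 ± 0.39), Ifi35 (0.95 ± 0.31) and Samhd1 (0.38 ± 0.12). None of the 3 was called without A2S day 4 A or without A2S day 4 B, and 1 was called without A2 day 4 A or B. At an unadjusted p of 0.05, 4 members passed in the full fit. Without ascorbic acid (S2), Trim25 was lower by 0.83 ± 0.15 (adjusted p = 0.000411, edgeR), the single call, where 3.17% of all genes were called lower. With neither AS day 4 library in the fit, these counts were 9 and 5. By day 6 the members other than Ifitm3 summed to 734 and 737 CPM in A2, 402 and 421 CPM in S2, and 423 in both A2S libraries. Day 6 was not tested between these groups.

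Without 2i (AS), the replicates disagreed. In AS day 4 A, Isg15 was at 2.09 CPM (4 UMIs), and in AS day 4 B at 193 CPM (872 UMIs). Ifit1 had 0 UMIs in A and was at 89.7 CPM in B, Oasl2 was at 3.14 and 203 CPM, and Usp18 at 2.09 and 120 CPM. Library A was near the MEF level for Isg15, Oasl2 and Usp18, and below it for Ifit1, whose MEF level came mostly from 1 cell per library. B was at or above the FBS day 3 level for Isg15 and Oasl2 and below it for Ifit1 and Usp18. Ratios of B to A set counts under 3 UMIs at 3, so a gene at that floor in both has a log2 ratio of -1.24. Of the 42 tested members, 0 were at least 2-fold lower in B, where 1592 of 13229 genes were. At least 2-fold higher in B were 39 members, where 2.90% of the 13229 genes were. The exceptions among tested members were Trim25, Ifit2 and Samhd1. The median log2 ratio of B to A was 2.82 for the members and -0.12 for all genes. With 1 library on each side, this difference has no replicate check.

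Values of other genes in the pair are given for comparison. Col1a1 was at 266 CPM in A and 313 CPM in B. Macrophage and blood markers, 15 genes, summed to 16.2 CPM in the kept cells of A and 62.7 CPM in those of B. In the listed cells they summed to 45.4 and 1184 CPM, and Lyz2 was at 0 and 430 CPM. The sum in kept cells of A came from Cd68, Itgam and Cd14 alone. Lyz2 had 0 UMIs in kept cells of A and 92 in those of B (20.4 CPM), in 5 of 236 cells. Tyrobp had 0 and 17 UMIs. The part of these markers in the difference was not tested. Over all genes other than members, AS day 4 B was closest to AS day 4 A (r = 0.973) and next to FBS day 3 A (r = 0.971), a description across genes, which are not independent. The labels do not say how the libraries differed.

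**Figure D3:**
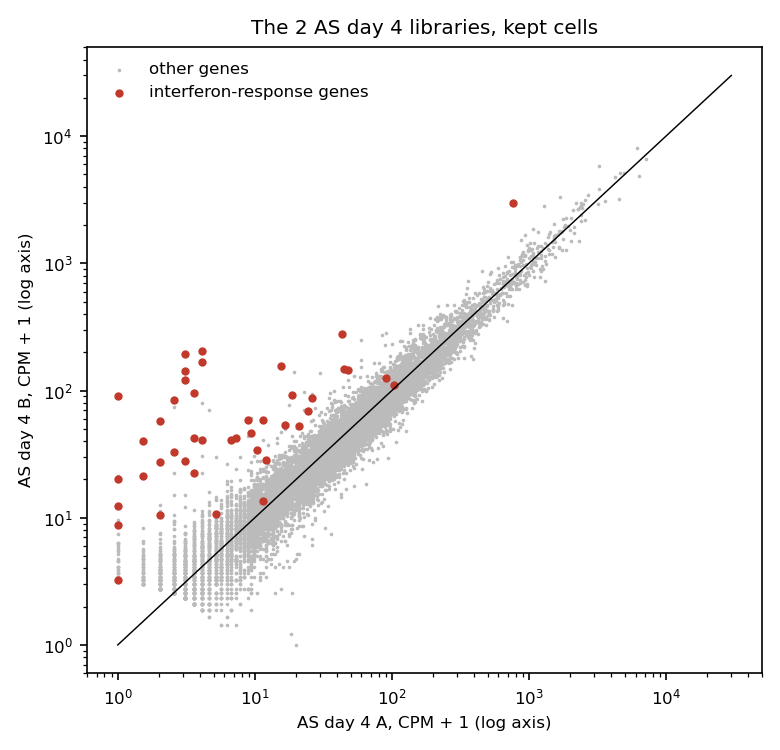
CPM + 1 of each gene in the kept cells of AS day 4 A (x) and AS day 4 B (y), on log axes, for genes with at least 10 UMIs in both together, and all members. Members (large points) lie above the line of equal levels, where other genes (small points) scatter around it.

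Tests that use AS day 4 rest on library B. Against A2S day 4, 39 of 42 members were higher in AS day 4, where 15.9% of all genes were called higher, with 0 lower. Members that entered the test through libraries where they were high favour rises here too. Members other than Ifitm3 summed to 548 CPM in AS day 4 A and 3072 CPM in AS day 4 B. In A2S day 4 they summed to 472 and 484 CPM. A fit of the compared groups alone called 12 members. Shares of all genes in the refits are not given beside their counts here. From AS day 4 to day 6, 26 members fell, where 11.0% of all genes were called lower. AS day 4 A alone lay the other way, with its sum of 548 CPM below those of both AS day 6 libraries. A fit of the compared groups alone called 1. Without AS day 6 A or B the counts were 13 and 17. The 2 AS day 6 libraries, which did not stand apart, summed to 895 and 897 CPM without Ifitm3. Among them Oas2 was at 29.2 and 31.5 CPM and Xaf1 at 57.8 and 48.2 CPM, genes named after their values were seen.

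Embryonic stem cells showed a mixed picture. Against MEF, 13 members were higher and 10 lower, where 36.3% and 35.5% of all genes were called. Bst2, with 2 overlapping ISRE matches in its window, was at 162 and 154 CPM in ESC and 3.72 and 4.18 CPM in MEF. ESC was also above every other kept library for this gene, and the change was 5.00 ± 0.38 (adjusted p = 4.01e-13, edgeR). Oasl2 (3.31 ± 0.77), Gbp3 (3.00 ± 0.66) and Parp9 (1.82 ± 0.31) were higher. Lgals3bp was lower (-4.64 ± 0.66), and Ifih1 had 2 UMIs in ESC, a ratio of 0.0498 (95% counting interval 0.00595 to 0.184).

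Stem cells in A2S medium had members other than Ifitm3 at 524 and 529 CPM. Against ESC, 13 members were lower and 5 higher, where 21.5% and 25.2% of all genes were called. Bst2 was at 33.4 and 34.0 CPM (-2.09 ± 0.32, adjusted p = 2.07e-06, edgeR), with no overlap with ESC. Gbp2 had 3 UMIs where ESC had 138, Gbp3 had 1 where ESC had 91, and Usp18 had 1 where ESC had 68. Ratios were 0.0153 (0.00311 to 0.0456), 0.00772 (0.000193 to 0.0441) and 0.0103 (0.000258 to 0.0596). Oasl2 fell by 5.90 ± 1.26 on the log2 scale. Ube2l6, the conjugating enzyme of Isg15, went the other way, from 1.80 and 0.781 CPM to 27.5 and 17.9 CPM (4.27 ± 0.65), and Xaf1 (2.38 ± 0.58) and Trim25 (0.91 ± 0.12) were also higher. With neither AS day 4 library in the fit, 26 members were called in place of 18.

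Counts per cell show how widely the early signal was spread. Each kept cell was thinned to 1000 UMIs, and UMIs of the members other than Ifitm3 were counted. Cells with at least 3 such UMIs made up 2.01% and 1.16% of MEF A and B, 50.4% and 47.7% of FBS day 3, and 47.2% and 45.8% of A2S day 2. In AS day 4 they made up 2.24% of A (95% exact binomial interval 0.464% to 6.40%) and 55.9% of B (49.3% to 62.4%). Cells with at least 1 were 30.9% and 29.7% in MEF and 92.6% and 91.2% in FBS day 3. These intervals cover counting error only. The early libraries stood apart from MEF at both limits.

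The unthinned share of a cell's UMIs gave the same order. Its median was 0.0380% and 0.0376% in MEF, 0.258% and 0.253% in FBS day 3, 0.229% and 0.224% in A2S day 2, and 0.286% in AS day 4 B. Each of these early medians was above the 90th percentile of MEF cells, 0.0710% and 0.0711%. The 10% of kept cells with the most members' UMIs held 24.2% and 24.0% of the thinned member UMIs in FBS day 3, and 33.9% and 39.9% in A2S day 2. In MEF A and B they held 48.8% and 48.1%, of only 121 and 162 such UMIs. Isg15 had a UMI in 67.0% and 56.9% of kept cells in FBS day 3 and in 4.70% and 3.71% in MEF. For scale, Lyz2, which fibroblasts should lack, had a UMI in 6.96% and 6.28% of kept cells in FBS day 3, at median depths of 14365.5 and 12427 UMIs, and in 14.8% and 11.4% of listed cells.

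**Figure D4:**
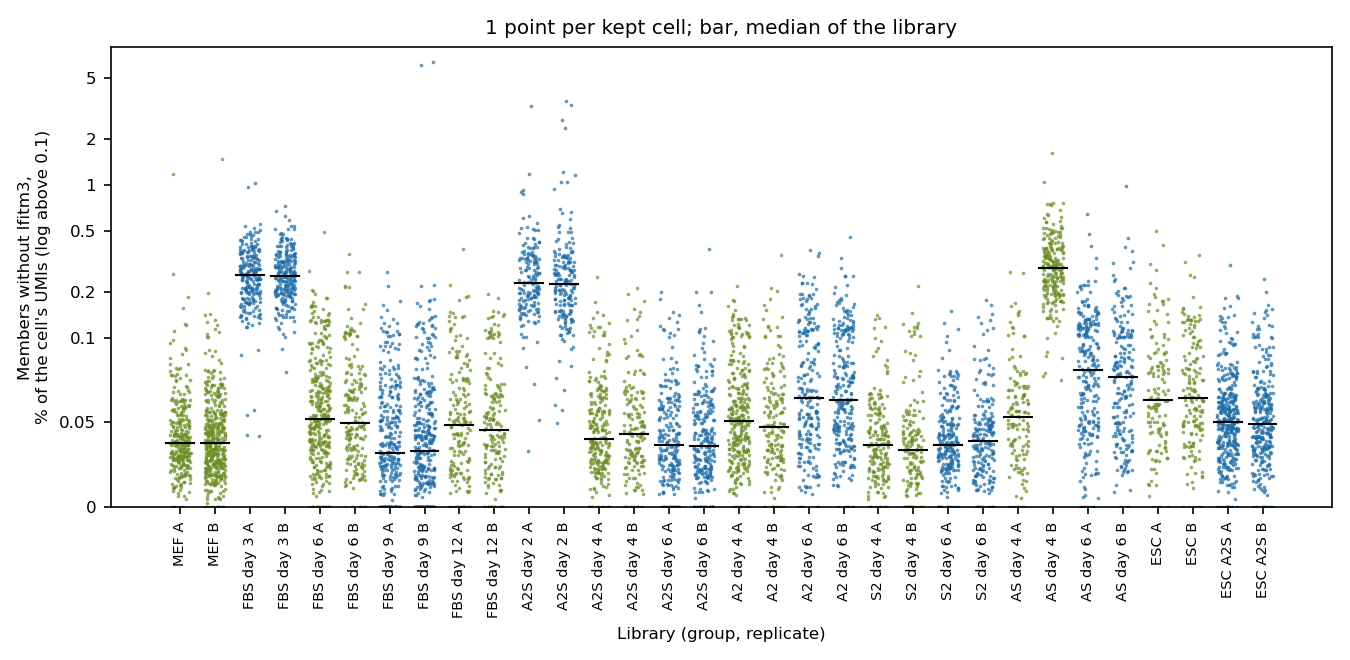
Share of each kept cell's UMIs that came from the 42 members other than Ifitm3 (y, percent, linear to 0.1 and log above), 1 point per cell and 1 column per library, with the median as a bar. Whole distributions lie higher in FBS day 3, A2S day 2 and AS day 4 B, and 2 cells of FBS day 9 B lie above 6%.

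Listed cells, the authors' irradiated MEFs, carried the members at higher levels in most of the same libraries. Members other than Ifitm3 summed to 5271 and 5003 CPM in listed cells of FBS day 3, 5992 and 5563 CPM in A2S day 2, 992 CPM in AS day 4 A and 4882 CPM in AS day 4 B. In MEF they summed to 546 and 407 CPM, with 10 and 13 listed cells. The 5 and 6 listed cells of ESC A and B were also high, at 3995 and 3544 CPM, where kept cells had 785 and 790 CPM. Those of ESC A2S, 62 and 36 cells, were at 1363 and 1291 CPM. Listed and kept cells are compared as a description only, since the list was made from these cells.

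Listed and kept cells differed by gene. Isg15 in kept cells of the 5 high libraries was at 0.334 to 0.722 times its level in listed cells, Ifit1 at 0.169 to 0.276 times and Ifit3 at 0.0760 to 0.240 times. Oasl2 was near equal, at 0.910 to 1.32 times, and Ifitm3 at 0.956 to 1.73 times. Medians over the members were 0.689 and 0.597 in FBS day 3, 0.449 and 0.674 in A2S day 2, and 0.759 in AS day 4 B. The macrophage gene Lyz2, measured the same way, was at 0.00805 to 0.0474 times, far below the members' medians in each library. Col1a1 was at 0.0643 to 0.349 times.

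**Figure D5:**
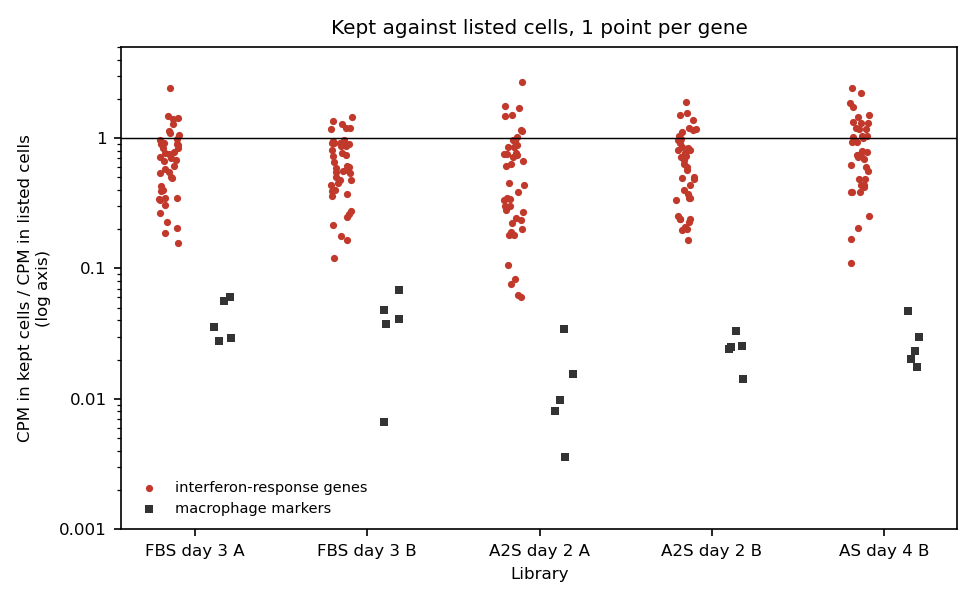
Ratio of the level in kept cells to that in listed cells (y, log axis) for each member with at least 3 listed UMIs (circles) and for 5 macrophage markers (squares), in the 5 libraries where members were high. Members centre between 0.449 and 0.759, and macrophage markers stay below 0.1.

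The listed cells were not fibroblasts alone. The 15 macrophage and blood markers summed to 488 and 339 CPM in listed cells of FBS day 3, 1387 and 1543 CPM in A2S day 2, and 23.01 and 16.05 CPM in MEF. In kept cells the same sum was 25.3 and 22.3 CPM in FBS day 3, 27.6 and 52.0 CPM in A2S day 2, and 11.02 and 14.4 CPM in MEF. Of the 9 such markers tested in kept cells, 1 was higher and 1 lower in FBS day 3 than in MEF, and 5 were higher and 0 lower in A2S day 2, against 19.8%, 20.9%, 25.6% and 24.2% of all genes in that order. Lyz2 was at 689 CPM in listed cells of FBS day 12 A, and at 604 and 503 CPM in those of S2 day 4 A and S2 day 6 B. Members other than Ifitm3 summed to 875, 485 and 663 CPM in the same cells. The other replicates had Lyz2 at 0, 4.31 and 0 CPM. In kept cells Lyz2 was at 63.6 CPM in FBS day 6 B and 110 CPM in FBS day 12 B, with member sums of 580 and 529 CPM. The part of these markers in the members' levels was not tested.

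Listed cells could be compared between 2 pairs of groups, with 6339 genes tested and 29 members among them. From FBS day 3 to FBS day 12, 15 members fell (1.36% of all genes) and 1, Cxcl10, rose (1.34%). A gene entered this test only with enough UMIs in some of the libraries. Members such as Isg15 and Oasl2 had most of theirs in the libraries where members were high, which favours falls in this count. Isg15 went from 585 UMIs to 2, a ratio of 0.0280 (0.00339 to 0.102), and Oasl2 from 487 to 0. Cxcl10 had 0 UMIs at day 3, and all 21 at day 12 were in listed cells of FBS day 12 A. Leaving out single libraries gave 6 to 10 calls in place of 16. Between the early cultures, 3 of 29 members were higher in listed cells of A2S day 2 than of FBS day 3, where 2.46% of all genes were called higher. These were Cxcl10 (0 UMIs in FBS day 3, at least 135-fold higher), Rsad2 (3.12 ± 0.48) and Ifit2 (2.49 ± 0.37). The Rsad2 call was lost without A2S day 2 A.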

How the data were processed

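The authors deposited, for each of 32 libraries, UMI counts as whole numbers by cell barcode and gene, and a list of barcodes called irradiated MEFs. The submitters' processing notes name STAR, mm10 and bcl2fastq 2.19. The sources used here name no gene annotation and no counting program. The members, gene lists and rule for named genes were chosen with earlier results of these data known. That rule took, per comparison, the 4 called members at the top and the 4 at the bottom of the fold changes, among those whose higher group reached 50 CPM, a panel of 19 members, fixed pathway genes, and up to 2 called genes of each other list per direction. Other members named with values were chosen after values were seen.

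Counts were summed per library over kept and over listed cells (groups with at least 5 listed cells in both libraries), without doublet calling. One edgeR 4.0.16 fit (TMM, filterByExpr) of 32 libraries in R 4.3.3 covered 15 comparisons, and one of 24 libraries covered 2 in listed cells. Levels are plain CPM, and bounds use 3 UMIs over the group at 0. The fit was tested on simulated counts. Cells were thinned to 1000 UMIs. Alternatives were DESeq2 1.42.0, RLE factors, a fit of unfiltered genes, a replicate block, listed cells kept in the sums, kept cells of 1000 UMIs or more, the compared groups alone, single libraries left out, and, chosen after seeing the data, both AS day 4 libraries left out and Ifitm3 left out of cell counts.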

Additional observations from a re-analysis of the deposited data

How the results depend on the processing

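The early rises and later falls varied little. Members called in FBS day 3 against MEF numbered 35 to 41 over all alternatives that kept both replicates, and 37 to 38 with 1 library left out. Those in A2S day 2 against MEF numbered 37 to 43, and 36 to 42 with 1 library left out. With 1 library left out, the 4 falls gave 32 to 37 (FBS day 6), 35 to 39 (A2S day 4), 32 to 37 (FBS day 12) and 39 to 42 (A2S day 6). ESC against MEF gave 18 to 20 in place of 23, and ESC A2S against ESC 13 to 17 in place of 18, with 1 left out.

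Other counts moved by over 1.5 times, and why was not tested unless fewer libraries or genes entered. For A2S day 2 against FBS day 3, 7 calls became 1 with DESeq2, 15 with the compared groups alone, 12 with neither AS day 4 library, and 3 to 5 with 1 library left out. For FBS day 12 against MEF, 9 became 16 with the compared groups alone, 18 with neither AS day 4 library and 5 to 8 with 1 left out. For A2S day 6 against MEF, 13 became 20 with no count filter, 22 with neither AS day 4 library and 9 to 12 with 1 left out. For A2 day 4, 3 became 1 with DESeq2, 9 with the compared groups alone, 9 with neither AS day 4 library and 0 to 1 with 1 left out. For S2 day 4, 1 became 4 with the compared groups alone and 5 with neither AS day 4 library. For AS day 4 against A2S day 4, 39 became 12 with the compared groups alone and 6 to 43 with 1 left out. For AS day 6 against AS day 4, 26 became 13 with DESeq2, 1 with the compared groups alone and 13 to 38 with 1 left out. In listed cells, FBS day 12 against FBS day 3 gave 27 in place of 16 with no count filter and 6 to 10 with 1 left out, and A2S day 2 against FBS day 3 gave 5 in place of 3 with no count filter, 1 with DESeq2 and 2 to 3 with 1 left out.

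Single genes changed sign in 4 cases. Cxcl10 in FBS day 3 against MEF ranged from -1.75 (without FBS day 3 A) to 2.17 (without MEF A) and was at -0.24 without MEF B. Ifnar1 in that comparison was at 0.10 with listed cells kept in the sums, and Ifit2 in A2S day 2 against MEF at -0.50 without A2S day 2 B and 0.99 without A2S day 2 A.

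Kept libraries with a larger share of cells with at least 3 member UMIs than both MEF libraries numbered 27 of 32 after thinning to 1000 UMIs, Ifitm3 included, and 8 with no thinning. Without Ifitm3 there were 19.

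The replicate letters did not pair libraries: over 120 pairs, same-letter deviations correlated at -0.0858 to 0.0740. With a replicate block, counts were 38 (FBS day 3), 41 (A2S day 2), 8 (A2S day 2 against FBS day 3), 38 (FBS day 6), 39 (A2S day 4), 38 (FBS day 12 against day 3), 41 (A2S day 6 against day 2), 10 (FBS day 12 against MEF), 14 (A2S day 6 against MEF), 3 (A2 day 4), 1 (S2 day 4), 39 (AS day 4), 23 (AS day 6), 25 (ESC) and 19 (ESC A2S), and 15 and 3 in listed cells.

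Listed cells of A2S day 6 and day 2 were not compared, since A2S day 6 had 3 and 1 of them. Depth limits the low members: Mx1 had too few UMIs for the test.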

Other observations

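In FBS day 9 B, 2 kept cells of 1063 and 1244 UMIs took 6.40% and 6.11% of their UMIs from members other than Ifitm3, while the next cell of that library had 0.220% and its median cell 0.0332%. They held 20 and 12 Ifit1 UMIs, 10 and 8 Cxcl10 UMIs, 4 and 6 Isg15 UMIs, and 0 UMIs of Lyz2 and Tyrobp. FBS day 9 entered no comparison. Its members other than Ifitm3 summed to 403 and 474 CPM in kept cells.

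Each MEF library also had 1 kept cell far above the rest, with 1.18% and 1.47% of its UMIs from these members, where the next cells had 0.262% and 0.195%. In A2S day 2 B, 4 kept cells had over 2%, and 3 of them held 382, 139 and 83 Cxcl10 UMIs. The one with the highest share, 3.57%, had 0 Cxcl10 UMIs and 72 of Isg15.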
